A study of Mus musculus with 18 samples.

Results

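The genes described here are the expressed long intergenic RNAs of mouse embryonic stem cells and of the gastruloids made from them. They are the genes with the GENCODE M21 type lincRNA whose mean level (TPM, read counts per transcript length, scaled to the same total in every library) reached 5 in at least 1 of 6 groups of libraries. The imprinted transcripts H19, Meg3, Rian, Mirg and Peg13 were left out. By this rule 135 genes were members, of 5614 lincRNA gene IDs in the tables and 55401 gene IDs in all. H19, Meg3 and Mirg were the 3 lincRNA genes at that level that the rule removed. At the same level stood 10874 protein-coding genes, 66 antisense genes and 84 genes of the type processed_transcript. The levels chose the members, so the size of a level and its course between days are given as descriptions with no test.

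Poly(A) RNA was sequenced from RHKI, a mouse embryonic stem cell line derived from E14Tg2a with an HA-Rnaseh1 knock-in, before and during differentiation into gastruloids, stem cell aggregates that form tissues of the early embryo. All 6 groups carried the knock-in, and Rnaseh1 encodes ribonuclease H1, which cuts RNA paired to DNA, as in R-loops. Control and Dox groups were taken at day 0 (0 h, cells in 2i/LIF medium), day 3 (72 h) and day 5 (120 h), with 3 libraries each. For the Dox groups, doxycycline (500 ng/ml) was given over 48 h ahead of differentiation; the labels do not say if it was continued. The labels name 1 line, and none of these groups received the drug without the knock-in. Nothing says that replicates were separate cultures, so p-values measure only the spread between these samples. In such bulk libraries, fewer cells of a type and less RNA per cell cannot be told apart.

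Long intergenic RNAs are transcribed by RNA polymerase II from their own loci, are mostly spliced and polyadenylated, and code for no known protein. Some act in the nucleus, such as Neat1, the scaffold of paraspeckles, and some in the cytoplasm, such as Norad, which binds Pumilio proteins. Others matter mainly as precursors, since microRNAs and small nucleolar RNAs (snoRNAs) are cut from their exons and introns. In stem cells a set of them, the pluripotency-associated transcripts (Platr genes and Lncenc1), is known for expression restricted to the undifferentiated state.

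Several members are precursors, and the mature microRNAs below are shown because the levels of their host transcripts are described in the results. Of 16 annotated microRNA genes inside 9 members on the same strand, 13 matched a mature sequence in RefSeq (GRCm38.p6), giving 24 mature sequences. Capitals mark the seed, bases 2 to 8 from the 5′ end, which pairs with target transcripts. The first 6 come from Mir17hg on chromosome 14, the next from Mir9-3hg on chromosome 7 and the last 2 from Mir670hg on chromosome 2. The hairpin Mir124a-2 lies in Mir124-2hg and is named only. The seeds of miR-17-5p and miR-20a-5p are the same, as are those of miR-19a-3p and miR-19b-3p, while miR-18a-5p has a seed of its own.
miR-17-5p: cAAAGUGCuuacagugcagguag
miR-20a-5p: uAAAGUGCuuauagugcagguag
miR-18a-5p: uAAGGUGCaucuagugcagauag
miR-19a-3p: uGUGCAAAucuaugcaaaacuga
miR-19b-3p: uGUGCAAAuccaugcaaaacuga
miR-92a-3p: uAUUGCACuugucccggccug
miR-9-5p: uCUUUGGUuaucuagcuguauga
miR-129-5p: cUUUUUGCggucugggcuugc
miR-670-5p: aUCCCUGAguguauguggugaa

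A second kind of sequence feature sits in the transcript of 2900097C17Rik, the gene of Norad. The Pumilio element TGTANATA was counted on the transcript strand of each member's longest transcript. It occurred 11 times in the 4915 bases of 2900097C17Rik, 9 times in the 2527 bases of Gm7292 and 4 times in the 20771 bases of Neat1. At least 1 element was present in 26 of the 135 members, and the median was 0. Gm7292 is a near copy on chromosome 6: 59.7% of its 100-base stretches are found letter for letter in 2900097C17Rik. The stretch of transcript bases 2417 to 2483 below holds a pair of elements, in capitals, and is found letter for letter in Gm7292.
2900097C17Rik: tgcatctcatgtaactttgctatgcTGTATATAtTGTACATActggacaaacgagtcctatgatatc

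The starts of 3 members are shown because they turn on, turn off or differ with Dox in the results: Lncenc1, Miat and Gm32061. Each window runs from 250 bases before to 50 bases after the RefSeq start on GRCm38.p6. That start is at the GENCODE start for Lncenc1, 447 bases away for Miat and 154 bases away for Gm32061. Capitals mark any of 3 promoter motifs on either strand, the CCAAT box, the TATA box (letters TATAAA) and the GC box (letters GGGCGG). Of these 3 windows, Lncenc1 held 2 CCAAT matches in opposite orientation, Miat 1 GGGCGG match and 25 CpG dinucleotides, and Gm32061 no match and 4 CpG.
Lncenc1, chr13:97434720-97435019, plus strand: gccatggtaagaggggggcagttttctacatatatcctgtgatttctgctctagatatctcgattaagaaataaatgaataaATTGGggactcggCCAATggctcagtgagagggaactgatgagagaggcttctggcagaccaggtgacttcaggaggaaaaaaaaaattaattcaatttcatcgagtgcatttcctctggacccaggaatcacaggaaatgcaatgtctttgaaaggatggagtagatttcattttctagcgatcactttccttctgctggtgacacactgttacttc
Miat, chr5:112228899-112229198, minus strand: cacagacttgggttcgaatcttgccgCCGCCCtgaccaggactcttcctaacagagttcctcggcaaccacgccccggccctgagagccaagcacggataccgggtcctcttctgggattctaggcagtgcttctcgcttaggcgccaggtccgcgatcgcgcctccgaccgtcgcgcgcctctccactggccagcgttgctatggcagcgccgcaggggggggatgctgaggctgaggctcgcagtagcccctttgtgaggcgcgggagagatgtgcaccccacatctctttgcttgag
Gm32061, chr7:62423350-62423649, minus strand: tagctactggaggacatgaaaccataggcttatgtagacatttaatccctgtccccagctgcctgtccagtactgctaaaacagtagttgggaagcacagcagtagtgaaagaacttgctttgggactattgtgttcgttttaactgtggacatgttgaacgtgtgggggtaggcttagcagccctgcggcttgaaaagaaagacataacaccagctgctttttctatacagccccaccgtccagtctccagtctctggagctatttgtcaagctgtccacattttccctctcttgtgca

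RefSeq windows matched 63 members by symbol and chromosome. CCAAT, read on both strands, was in 31 of these 63, against 41.1% of 27025 genes with a window. It was in 20 of the 35 matched members that were highest at day 0 and in 7 of the 21 highest at day 5. TATAAA was in 3 of 63 against 15.7% of all genes, GGGCGG in 19 against 38.2%, the octamer ATGCAAAT in 5 against 1.97%, and the E-box CACGTG in 3 against 8.09%. GGGCGG was in 9 of the 35 highest at day 0 and in 8 of the 21 highest at day 5, and the octamer in 2 and 1. None of the 63 held TCAAGGTCA, which 0.466% of genes held.

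Total counts per library ranged from 25748897 to 38128366. Rnaseh1 itself stood at 22.8 to 29.7 TPM in the control libraries and at 139.6 to 183.1 TPM (day 0), 78.0 to 80.1 TPM (day 3) and 67 to 75 TPM (day 5) with Dox, and passed the test at each day (edgeR log2 fold changes 2.43, 1.53 and 1.54). The labelled cell type was checked by summed TPM of marker lists. Naive and core pluripotency markers summed to 3133 to 3378 TPM in day 0 controls and 211 to 233 TPM at day 5. Nearly all of the day 5 sum was Sox2, also a gene of neural progenitors, with a mean of 22.2 TPM at day 3 and 212 TPM at day 5, while Pou5f1 stood at 4.39 TPM and Nanog at 0.9 TPM. Streak and early mesoderm markers summed to 704 to 923 TPM at day 3, and neural tube markers to 758 to 817 TPM at day 5. Two-cell-like markers stayed at or under 3.01 TPM and extraembryonic endoderm markers at or under 4.56 TPM in every library. Fibroblast markers stayed at or under 9.9 TPM in every library. Trophoblast markers summed to 35.4 to 48.1 TPM at day 0. Nearly all of that sum was Tfap2c, with a mean of 34.8 TPM in day 0 controls and 42.5 TPM with Dox. Gata3, of the same list, had means of 1.17 and 1.08 TPM. Day 0 Dox replicate 2 stood apart. The rRNA gene CT010467.1 took 4.761% of the estimated counts in that library, against 0.144 to 0.483% in the other 17 libraries. Member calls that changed without that library are given with and without it.

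The members made up a small and changing share of the transcriptome. They held 0.2998% ± 0.0171 of all TPM in day 0 controls (SD, n = 3), 0.2087% ± 0.0011 at day 3 and 0.2334% ± 0.0006 at day 5. With Dox the shares were 0.3002% ± 0.0079, 0.1995% ± 0.005 and 0.2239% ± 0.0044. Without day 0 Dox replicate 2 the day 0 Dox share was 0.2994% ± 0.011 (SD, n = 2). In that library the share was 0.3017% with the gene Rmrp and 0.2704% without it. The highest member was Gm10076, a gene without introns on chromosome 14 whose transcript matches the ribosomal protein mRNA Rpl41 over its whole length. Gm10076 was at 559 to 591 TPM in day 0 controls and 802 to 864 TPM at day 5, while Rpl41 stood at 5865 to 6129 and 7319 to 7958 TPM in the same libraries. Its estimated counts were not whole numbers in any of the 18 libraries, so reads were divided between it and other genes. With Dox, Gm10076 was at 645 to 705 TPM at day 3, against 726 to 781 TPM in controls, and at 698 to 753 TPM at day 5. Without Gm10076 the members summed to 2424 ± 162 TPM in day 0 controls, 1332 ± 36.7 at day 3 and 1501 ± 33.6 at day 5. With Dox these sums were 2433 ± 90.5, 1322 ± 19.6 and 1513 ± 36.7 TPM, within 1 SD of the controls at each day.

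Most members were at their highest before differentiation. The highest group mean was at day 0 for 77 members, at day 3 for 10 and at day 5 for 48. Between 118 and 121 members reached 1 TPM in a day 0 library, 100 to 105 at day 3 and 90 to 94 at day 5. Only 30 reached the level of 5 TPM in all 6 groups, 73 reached it in 2 groups or fewer, and 12 in 1 group. Just inside the threshold lay Gm20703 (5.16 TPM in its highest group), Gm29650 (5.20 TPM) and Gm13832 (5.24 TPM). Just outside lay Gm43672 (4.93 TPM), Gm12319 (4.86 TPM) and Ftx (4.84 TPM), the last a neighbour of Xist.

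**Figure D1:**
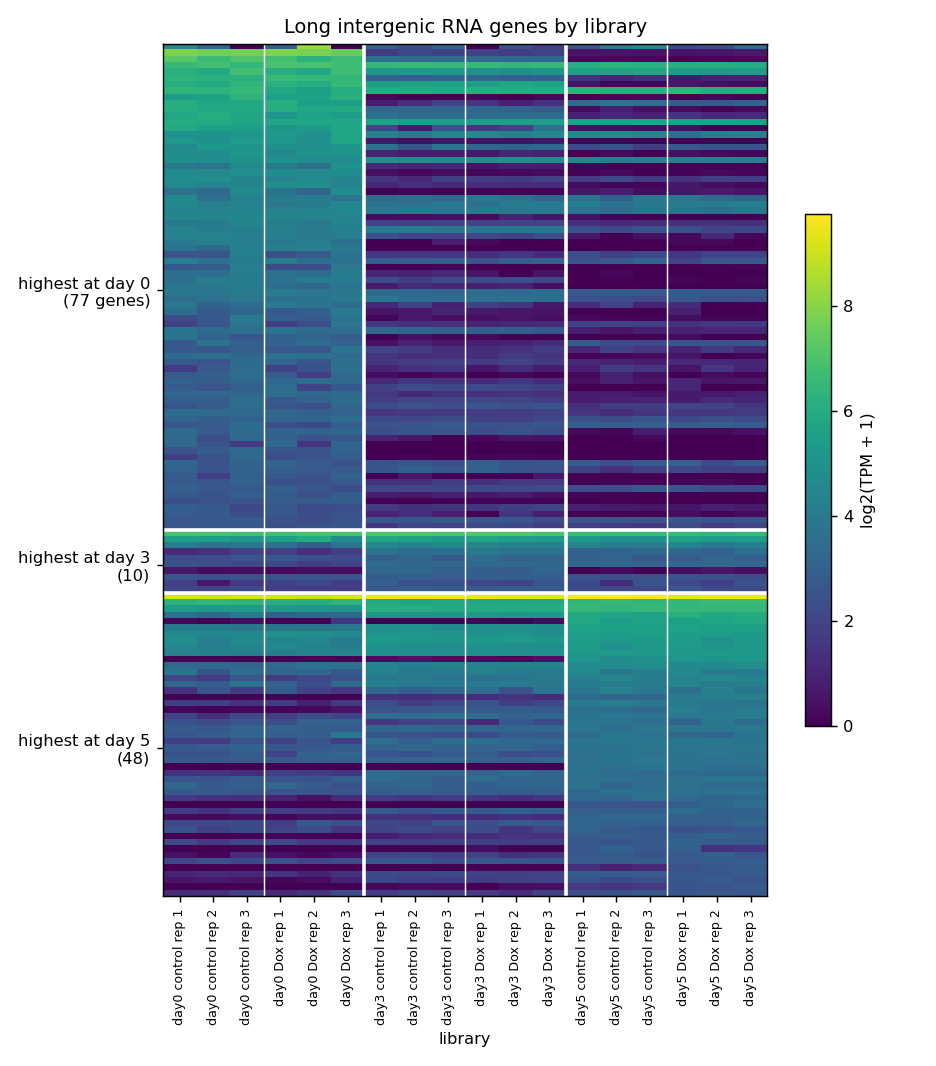
Heatmap of the 135 members (rows) in the 18 libraries (columns), coloured by log2(TPM + 1) and sorted by the day of the highest group mean, then by level. The 77 genes highest at day 0 form the upper block, and 10 and 48 genes are highest at day 3 and day 5. The brightest row is Gm10076.

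Members were then described by features that the rule did not use. The median exonic length was 1511 bases (205 to 20771), 18 members had 1 exon in every transcript, and 109 carried a placeholder symbol. A protein-coding start lay within 100 kb of 108 members and within 5 kb of 23, at a median distance of 27.9 kb. For 37 members another gene had a transcript at least 95% identical over at least 50% of the length, and 51 had estimated counts that were not whole in at least 1 library. Values of such members depend on how reads were divided. Exons overlapped another gene on the opposite strand in 19 members and on the same strand in 9. The strand setting of the counting is not given in the sources used here, so reads from overlapping genes cannot be told apart. No similar transcript and no exon overlap was found for 83 members.

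The pluripotency-associated members were at their highest in the stem cells. Lncenc1 (chr13:97434970-97497007, plus strand, 3 exons), a stem cell transcript linked to glycolytic gene expression, was at 229, 202 and 207 TPM in the day 0 controls. It was at 2.13, 3.17 and 2.62 TPM at day 3 and at 0.43, 0.5 and 0.42 TPM at day 5. Every day 0 library was thus above every day 3 library, and every day 3 library above every day 5 library. With Dox it was at 231, 219 and 179 TPM at day 0, overlapping the controls. Platr10 took a later course: 67.1, 61.3 and 83.2 TPM at day 0, 42.7, 46.7 and 45.4 TPM at day 3, and 0.45, 0.11 and 0.06 TPM at day 5. Its level at day 3 was still over 40 TPM, and at day 5 it was under 1 TPM in all 3 control libraries. Platr15 went from 98.2 to 152 TPM over 9.51 to 11.2 TPM to 0.09 to 0.15 TPM, and Platr3 from 60.2 to 67.1 TPM over 7.54 to 8.38 TPM to 0.22 to 0.76 TPM. Platr4, Platr7 and Platr27 started at 4.81 to 10.8 TPM and had the same order of days.

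The whole list of pluripotency-associated transcripts, which is not restricted to members, held 37 symbols, of which 21 genes were tested, 7 of them members. Between day 0 and day 3 of the control course 20 of these fell and 1 rose, with a median log2 change of -3.09, against a median of 0.016 over all genes. Between day 3 and day 5, 15 fell and 1 rose (median -3.08). Of all 17795 genes tested, 73.5% passed between day 0 and day 3 (37.2% higher and 36.3% lower) and 64.8% between day 3 and day 5 (31.7% higher and 33.1% lower), by edgeR's quasi-likelihood F test at a Benjamini-Hochberg adjusted p under 0.05. The list was named for stem cell expression, so its direction is not independent evidence. No gene of it passed in a Dox contrast.

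**Figure D2:**
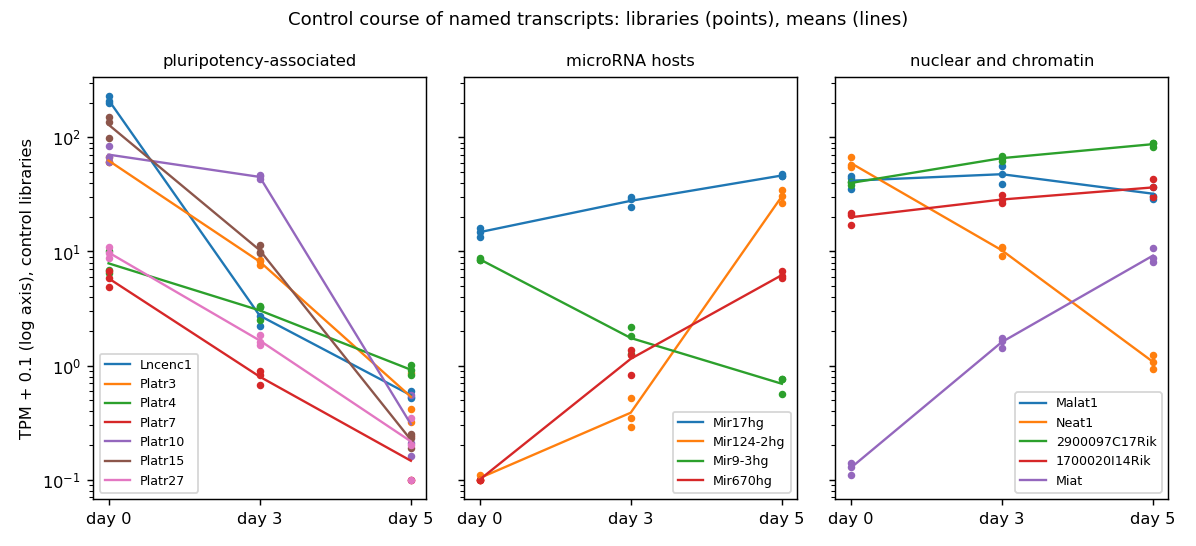
Control libraries (points) and group means (lines) of pluripotency-associated, microRNA host and nuclear members at the 3 days, as TPM + 0.1 on a log axis. The 7 pluripotency-associated lines descend, Mir124-2hg, Mir670hg and Miat ascend, and 1700020I14Rik and 2900097C17Rik ascend by a smaller factor, and Neat1 descends.

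MicroRNA hosts took different directions. Mir17hg, the host of the miR-17-92 cluster whose seeds are printed above, was at 15.9, 14.8 and 13.4 TPM in day 0 controls, 28.6, 29.9 and 24.6 TPM at day 3 and 47.6, 45.5 and 45.6 TPM at day 5. Its 3 days did not overlap. Mir124-2hg, host of the neuronal microRNA miR-124, was at 0.01, 0 and 0 TPM at day 0, 0.25, 0.42 and 0.19 TPM at day 3 and 34.3, 26.6 and 30.3 TPM at day 5. It was thus under 1 TPM in every control library before day 5. With Dox it was at 33.5, 32 and 35.9 TPM at day 5, and the groups overlap. Mir670hg, which spans 3 annotated microRNA genes including Mir129-2, was listed at 0 in the 3 day 0 controls and stood at 0.73 to 1.27 TPM at day 3 and 5.7 to 6.65 TPM at day 5. Against a floor of 3 counts per library it was at least 4.36-fold higher at day 3 than at day 0.

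Mir9-3hg, a host of miR-9, another microRNA of neural progenitors, went the other way. Its controls were at 8.25, 8.4 and 8.74 TPM at day 0, 2.07, 1.16 and 1.71 TPM at day 3 and 0.66, 0.66 and 0.46 TPM at day 5. Thus Mir9-3hg, which holds the hairpin Mir9-3, was highest in the stem cells, while neural tube markers summed highest at day 5. E130102H24Rik, host of Mir101a, was at 4.89 to 5.62 TPM at day 0 and 1.96 to 2.52 TPM at day 5. No microRNA host named here passed in a Dox contrast except Snhg20, which contains Mir6516. Host transcripts measure the precursor locus and not the mature microRNA.

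Of the snoRNA hosts, Epb41l4aos and Snhg12 were among the 10 highest members. Their introns or exons hold snoRNAs that guide rRNA modification. Epb41l4aos was at 113 to 124 TPM in day 0 controls, 125 to 136 TPM at day 3 and 94.5 to 95.4 TPM at day 5. Snhg12, which holds 4 named snoRNAs, was at 87.6 to 110 TPM, 88.6 to 99.4 TPM and 71.1 to 79.7 TPM. Snhg6 was at 53.7 to 64.1 TPM, 43.2 to 49.6 TPM and 46.8 to 49.7 TPM, and Snhg10 at 3.69 to 4.9 TPM, 5.53 to 8.34 TPM and 5.41 to 8.0 TPM. On the whole list of snoRNA hosts 17 genes were tested, of which 4 rose and 4 fell between day 0 and day 3, and 11 fell and none rose between day 3 and day 5 (edgeR, adjusted p under 0.05; the list was not chosen by level). Over all genes 73.5% were called in the first interval, and 31.7% rose and 33.1% fell in the second.

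Nuclear RNAs divided. Neat1 (chr19:5824708-5845478, minus strand) stood at 54.9, 66.7 and 57.3 TPM in day 0 controls, 11, 8.96 and 10.6 TPM at day 3 and 0.97, 1.13 and 0.84 TPM at day 5. Its neighbour Malat1, an abundant RNA of nuclear speckles, was at 35.3 to 45.3 TPM, 38.6 to 56.2 TPM and 28.9 to 36.8 TPM, so its day 0 and day 3 libraries overlapped. Miat (chr5:112213228-112229395, minus strand), a nuclear RNA known from retina and neural progenitors, went from 0.01 to 0.04 TPM over 1.33 to 1.64 TPM to 7.98 to 10.6 TPM. 2900097C17Rik, the Pumilio-binding RNA, went from 38.1 to 40.9 TPM over 61.5 to 69 TPM to 82.8 to 90 TPM. 1700020I14Rik, known as Cyrano and as a regulator of miR-7, went from 17.1 to 21.7 TPM over 26.3 to 31 TPM to 29.7 to 42.8 TPM.

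Rmrp was measured without precision. The lincRNA of that name (ENSMUSG00000115420) covers the RNA component of RNase MRP on chromosome 4. Its controls were at 23.2, 8.66 and 0 TPM at day 0, and the Dox libraries at 7.27, 314 and 0 TPM. The value of 314 TPM belongs to day 0 Dox replicate 2, the library with the high rRNA share, and alone put this gene among the 10 highest members. Its day 0 log2 fold change was 3.38 with an SE of 1.22 (edgeR adjusted p = 0.23).

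Proteins that build paraspeckles and speckles, and factors that degrade nuclear RNA, were taken as the pathway background. Of 12 paraspeckle and speckle proteins tested, 7 rose and 1 fell between day 0 and day 3, and 9 rose and none fell between day 3 and day 5. Over all genes, 37.2% rose and 36.3% fell in the first interval, and 31.7% rose and 33.1% fell in the second. Nono, a core paraspeckle protein, rose by 0.35 on the log2 scale in each interval (edgeR adjusted p 2.4e-07 and 3.4e-07). Sfpq, its partner, rose by 0.25 and 0.38. The mean of Neat1 went from 59.6 TPM at day 0 to 0.98 TPM at day 5. Neat1 has 4 annotated transcripts, and its median length in the authors' counting was 3263 bases, against 20771 exonic bases. Its level in these poly(A) libraries thus comes mostly from shorter transcripts, and paraspeckles were not measured. Of 25 nuclear decay and cap-complex factors tested, 12 rose and 9 fell between day 0 and day 3, and 7 rose and 10 fell between day 3 and day 5, where 73.5% and 64.8% of all genes were called. The largest of these changes at day 3 were those of Exosc7, an exosome subunit (1.55), and Zc3h3 (-1.14). Within single days, 1 of the 25 decay factors passed with Dox, Exosc4 at day 5 (log2 fold change -0.24, edgeR adjusted p = 0.015). Over all genes 1.04%, 0.0169% and 4.74% were called with Dox at day 0, day 3 and day 5. In the Dox effect at day 5 minus day 0, Exosc4 (-0.38, edgeR adjusted p = 0.01) and Exosc2 (-0.35, adjusted p = 0.03) passed. Over all genes 3.28% were called there (1.76% higher and 1.52% lower), and nothing is read from so few decay factors. None of the 12 paraspeckle and speckle proteins passed with Dox at any of the 3 days.

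Genes named for developmental loci were highest on different days. Bvht, a transcript studied in cardiac mesoderm, was at 20.1 to 28.5 TPM in day 0 controls and at 1.12 to 3.29 TPM in the day 3 and day 5 controls. Pantr1, divergent from the neural transcription factor gene Pou3f3, was at 0.15, 0 and 0.3 TPM at day 0, listed at 0 at day 3 and at 60, 39.9 and 49.2 TPM at day 5. It was at least 128-fold higher at day 5 than at day 3 against the floor of 3 counts per library. Halr1 was at 53 to 69.6 TPM at day 0, 0.69 to 2.85 TPM at day 3 and 10.2 to 13.1 TPM at day 5. Its day 3 libraries were the lowest and its day 0 libraries the highest.

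The members that were lower at day 3 by the largest factors had placeholder symbols, Eprn apart. Gm40977 on chromosome 13 was at 41.7, 48.9 and 80.4 TPM in day 0 controls and at 0.15, 0 and 0 TPM at day 3. Its transcript matches Zfp934 over 92.7% of its length, and Zfp934 itself was at 27.7 to 35.5 TPM and then 6.85 to 8.67 TPM. At day 0 Zfp934 was at 13.3 to 21.7 TPM with Dox and was called lower (log2 -0.73, edgeR adjusted p = 0.02), while Gm40977 was at 47, 48.6 and 72 TPM with Dox, within the range of its controls. Gm12690 was at 8.61 to 18 TPM and then listed at 0 in all 3 day 3 controls, at least 22.1-fold lower. Gm47725 was at 4.64 to 9.11 TPM and then listed at 0, at least 43.1-fold lower. Eprn, Gm38246, Gm48510 and 4930517L18Rik were at 2.41 to 24.3 TPM at day 0 and at 0.13 TPM or less at day 3. Gm16211 was at 23 to 29.2 TPM and then 0.15 to 0.36 TPM. Gm32885, 1 of the 10 highest members, was at 72.2 to 78.3 TPM, then 6.6 to 8.14 TPM and at day 5 1.04 to 1.62 TPM.

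Other members were lower again at day 5. Gm53 was at 30 to 41.4 TPM in day 0 controls, at 0.22 to 0.5 TPM at day 3 and listed at 0 at day 5, and 4930461G14Rik went from 11.1 to 16.4 TPM over 2.55 to 3.65 TPM to 0 to 0.07 TPM. Gm13832 was at 4.09 to 6.24 TPM, then 0.68 to 1.42 TPM and then listed at 0. 1810058I24Rik was by contrast high at every day, at 73.2 to 85.5 TPM, 52.5 to 60.2 TPM and 83.1 to 92.3 TPM.

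Zinc finger genes were near some of these loci. The nearest coding gene carried a Zfp symbol for 15 members, and 15 members lay on chromosome 13. In a stretch of 1.21 Mb (chr13:65241753-66451277) lay 7 of them, Gm36445, Gm48168, Gm48170, Gm40987, Gm48222, Gm48223 and Gm26754. Every one was lower at day 3 than at day 0 in the control course. Each was highest in a day 0 group and at 5 TPM in 2 groups only. This shared direction thus follows from how members were chosen, and nothing is read from it. Gm48222 went from 21.1 to 21.7 TPM to 0.24 to 0.4 TPM, and Gm48168 from 12.1 to 24.5 TPM to 0.96 to 1.28 TPM. Gm36445 changed least, from 5.19 to 6.95 TPM to 3.3 to 3.38 TPM. A similar transcript of another gene existed for 6 of the 7, so their values can depend on how reads were divided and may not be independent. For Gm48223 the match was in opposite orientation, and its estimated counts were not whole in 1 library only. A further group of 4 members near Zfp825 (E430024I08Rik, Gm47467, Gm47469 and Gm46430), also with similar transcripts, stayed between 2.62 and 30.5 TPM in all control libraries.

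In the opposite direction, 5 members had no counts in the day 3 controls and were present at day 5: Pantr1, C130026L21Rik, Gm32061, Gm20083 and Gm15906. C130026L21Rik was at 11.3, 11.9 and 12.9 TPM in day 5 controls, at least 65.9-fold above day 3, and listed at 0 in all 12 libraries of day 0 and day 3. Gm20083 was at 4.66 to 5.46 TPM and Gm15906 at 5.25 to 7.66 TPM. Gm27032 appeared earlier, from 0 to 0.11 TPM over 4.84 to 5.35 TPM to 9.21 to 11.5 TPM. Gm39090 was highest in between, with 0.23 to 0.55 TPM at day 0, 7.23 to 9.31 TPM at day 3 and 0 to 0.23 TPM at day 5. AC132253.9 reached 7.9 to 8.45 TPM at day 5, but its transcript matches Gm47547 in full and no library gave whole counts. Counted over the fit, 35 members were called higher and 70 lower at day 3 against day 0 (73.5% of all genes were called), and 36 higher and 47 lower at day 5 against day 3 (64.8%; 31.7% higher and 33.1% lower). These counts follow from how members were chosen and nothing is read from them. Gm11635 and Gm28625 were too low to be tested, which left 133 of 135 members.

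The Dox contrasts compare cells with and without induction of the nuclease. At day 0, 2 of the 133 tested members were called lower with Dox and none higher, against 1.04% of all genes called (0.292% higher and 0.747% lower). At an unadjusted p under 0.05 there were 19 of the 133 members, beside 2197 of all 17795 genes. The median log2 fold change of members was -0.002, against -0.001 over all genes. Changes over 1 in size were found for 4 members and for 889 of all 17795 genes. Both called members were among the 10 highest.

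Snhg20 (ENSMUSG00000086859, chr11:117076008-117078955), host of a scaRNA and of Mir6516, was at 81.9, 79.9 and 89.2 TPM in day 0 controls and at 55.6, 46.3 and 65.9 TPM with Dox. All 3 Dox libraries were below all 3 controls. Its log2 fold change was -0.43 (SE 0.08, edgeR adjusted p = 0.018). Day 0 Dox replicate 2 was the lowest of them, and without it the value was -0.33 with an adjusted p of 0.088. Without day 0 control replicate 1 the adjusted p was 0.056, and with the 6 day 0 libraries fitted alone it was 0.57. At day 3 (0.07) and day 5 (-0.07) its log2 fold changes were near 0 and not called.

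2900097C17Rik (ENSMUSG00000102869, chr2:156388065-156392979) was at 40.9, 38.1 and 40.2 TPM in controls and at 36.8, 33.7 and 32.2 TPM with Dox. The groups did not overlap. Its log2 fold change was -0.20 (SE 0.05, edgeR adjusted p = 0.043). The call was lost in 19 of 26 alternatives, in 15 of them by leaving out a library, and without day 0 Dox replicate 2 the adjusted p was 0.12. Summed with its copy Gm7292, the controls were at 53.8, 42.9 and 50.4 TPM and the Dox libraries at 44.8, 41.9 and 37.7 TPM, which overlap.

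Neat1 was at 54.9, 66.7 and 57.3 TPM in day 0 controls and at 33.7, 49 and 41.7 TPM with Dox, with no overlap between the groups. Its log2 fold change of -0.52 (SE 0.13) missed the threshold (edgeR adjusted p = 0.076). With the replicate number as a block Neat1 passed (adjusted p = 0.042), as did Platr15 (-0.40, adjusted p = 0.032, against 0.14 without the block), so that 4 members were called lower. Without day 0 Dox replicate 2, Neat1 was the 1 member called, beside 76 of all 18220 genes then tested. The divergent transcripts AI480526 (-0.52, adjusted p = 0.093) and Gm21781 (-0.44, adjusted p = 0.096) had values of similar size and were not called. DESeq2 called all 3, Neat1 (adjusted p = 0.038), AI480526 (0.021) and Gm21781 (0.038), as did edgeR without a filter (1.5e-06, 0.0058 and 0.035). By limma-voom Neat1 passed (0.026).

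At day 3 no member was called by edgeR, against 0.0169% of all genes. An unadjusted p under 0.05 was found for 4 of 133 members and for 432 of all 17795 genes. DESeq2 and limma-voom called none as well. The smallest p-values belonged to Gm48170, at 1.07, 0.94 and 1.13 TPM in controls and 0.48, 0 and 0.41 TPM with Dox, and to Pantr1, listed at 0 in the controls and at 0.04 to 0.22 TPM with Dox. Both are levels of about 1 TPM or less, and both had an adjusted p of 1. The middle 50% of members lay between log2 fold changes of -0.13 and 0.11.

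At day 5, 3 members were called higher and none lower, against 4.74% of all genes called (2.39% higher and 2.34% lower). The 3 were 2.26% of the tested members, beside the 2.39% of all genes called higher, and nothing is read from this count. At an unadjusted p under 0.05 there were 15 of 133 members, beside 2916 of all 17795 genes. The middle 50% of members lay between -0.18 and 0.19. Of the 3, only Miat was at 5 TPM in a control group. Gm32061 and Gm38534 are members through their day 5 Dox level alone, so their difference was part of the choice and is given as a description. There were 5 members of that kind (also Gm48510, Gm27010 and Gm29650), and the count over the other 130 members is 1 higher.

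Miat was at 10.6, 7.98 and 8.7 TPM in day 5 controls and at 15.5, 15.9 and 17.9 TPM with Dox. The lowest Dox library was above the highest control. Its log2 fold change was 1.01 (SE 0.11, edgeR adjusted p = 3.3e-05), and it was called in each of 26 alternatives, with values of 0.93 to 1.15. At day 3 the same gene was at 1.64, 1.33 and 1.55 TPM in controls and 1.44, 1.75 and 1.39 TPM with Dox, which overlap. The Dox effect at day 5 exceeded that at day 3 by 0.87 (SE 0.18, adjusted p = 0.025), and 9 of 24 alternatives lost this call, each by leaving out a library. Exons of the opposite-strand gene Gm26953 overlap 2260 of its 9293 exonic bases, and Gm26953 was at 0.11 TPM or less in every library. Neural tube markers, 9 genes, summed to 758 to 817 TPM in day 5 controls and 691 to 742 TPM with Dox, with 1 called higher, 4 lower and none at 0. Somite markers, 8 genes, summed to 87.5 to 101 TPM and 59.5 to 78.3 TPM, with none called higher, 2 lower and 1 at 0. The part of such cell types in the day 5 results was not tested.

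Gm32061 (chr7:62337794-62423245, minus strand, 3 exons), whose start window is printed above, was at 1.61, 0.95 and 1.14 TPM in day 5 controls and at 4.29, 5.69 and 6.44 TPM with Dox. It was at 0.01 TPM or less in all 12 libraries of day 0 and day 3. Its log2 difference was 2.14 (SE 0.23). The nearest coding start, 3106 bases away, is that of Mkrn3, an imprinted gene, which was at 14.5 to 16.8 TPM in controls and 18.1 to 19 TPM with Dox (log2 0.25, edgeR adjusted p = 0.48). Gm38534 on chromosome 11 was at 2.07, 1.79 and 2.04 TPM in controls and at 5.13, 4.92 and 5.86 TPM with Dox, a log2 difference of 1.41 (SE 0.33). The model's call of Gm38534 was lost when any 1 of the 6 day 5 libraries was left out.

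**Figure D3:**
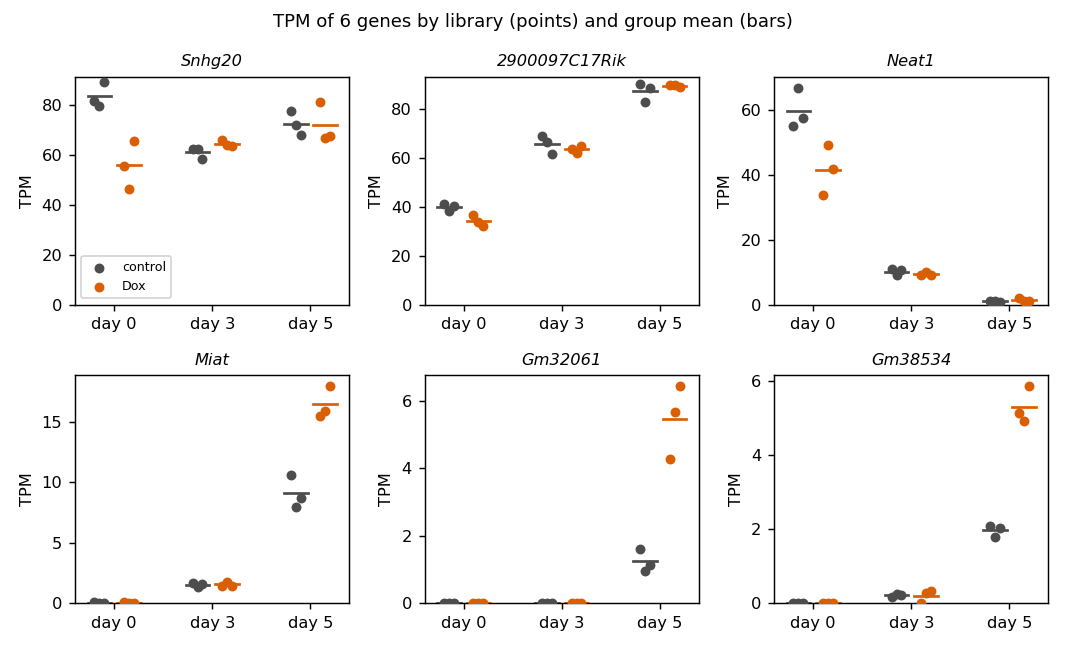
TPM of Snhg20, 2900097C17Rik, Neat1, Miat, Gm32061 and Gm38534 in each control (grey) and Dox (orange) library at the 3 days, with group means as bars. Dox libraries lie below controls at day 0 in the upper 3 panels and above them at day 5 in the lower 3.

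Some members had lower values with Dox at day 5 without passing. 1700001L05Rik was at 4.52, 3.45 and 4.5 TPM in controls and 4.31, 3.09 and 3.36 TPM with Dox (log2 -0.40, edgeR adjusted p = 0.051), and these overlap. Halr1 was at 10.2, 13.1 and 10.9 TPM in controls and 6.38, 5.84 and 7.79 TPM with Dox, without overlap (-0.77, adjusted p = 0.14). With the day 5 libraries fitted alone 5 members were called higher and 4 lower. With the replicate block added the counts were 8 and 8. Halr1 was among the lower in both fits. How many of all genes these fits called is not given here, so nothing is read from these counts. Malat1 was at 36.8, 28.9 and 30.3 TPM in controls and 49.7, 43.2 and 42.4 TPM with Dox (0.32, adjusted p = 0.55).

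**Figure D4:**
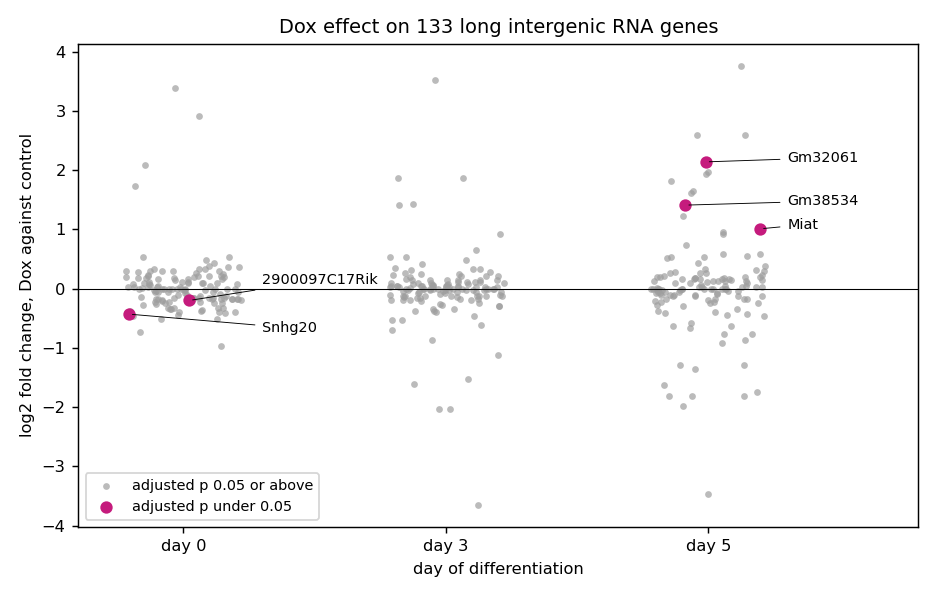
Log2 fold change of Dox against control for the 133 tested members at each day, from the edgeR fit of all libraries, with a horizontal jitter. Filled magenta points passed an adjusted p of 0.05: 2 at day 0, none at day 3 and 3 at day 5, of which Gm32061 and Gm38534 are members through their Dox level.

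The Dox effect differed between day 5 and day 0 for 3 members, all with the higher value at day 5, against 3.28% of all genes called (1.76% higher and 1.52% lower). They were Neat1 (difference 1.06, SE 0.28, edgeR adjusted p = 0.042), AI480526 (0.74, SE 0.18, adjusted p = 0.03) and Gm21781 (0.71, SE 0.17, adjusted p = 0.025). None of the 3 passed at either day by itself. AI480526 was at 11.3, 8.95 and 15.4 TPM in day 0 controls and 6.54, 8.67 and 8.63 TPM with Dox, and at 56.9, 50.5 and 48.7 TPM in day 5 controls and 68.5, 56.5 and 62.6 TPM with Dox. Neat1 at day 5 was near 1 TPM in both groups (0.84 to 1.13 and 1.14 to 1.87 TPM). Without day 0 Dox replicate 2, Neat1 (1.20, adjusted p = 0.015) and AI480526 (0.83, adjusted p = 0.028) passed and Gm21781 did not (0.67, adjusted p = 0.054), while Gm30124 was called in the lower direction, which with all libraries it was not (-0.62, adjusted p = 0.26). Without that library 518 of all 18220 genes then tested were called. With limma-voom none of the 3 passed. Of 24 alternatives, 13 lost the call of Neat1 (12 by leaving out a library), 8 that of AI480526 (7 by leaving out a library) and 4 that of Gm21781: limma-voom, and leaving out day 0 Dox replicate 2, day 5 control replicate 2 or day 5 control replicate 3. Exons of Gm38102 and 4932422M17Rik overlap AI480526 on the opposite strand, and both were under 1 TPM in every library. Between day 5 and day 3 Miat alone passed, against 0.82% of all genes.

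The nearest coding genes were compared over the control course for 92 members with a tested coding start within 100 kb. A divergent pair has its starts within 5 kb on opposite strands, pointing apart, and 13 members had one. Across the 13 divergent pairs, the log2 changes of member and neighbour from day 0 to day 3 had a Pearson r of 0.97 and a Spearman rho of 0.75, and across the 79 other pairs 0.31 and 0.34. From day 3 to day 5 they were 0.72 and 0.09, and 0.03 and 0.22. The points share libraries and scaling, and genes are not independent replicates, so no p is given. The 3 largest member changes from day 0 to day 3 belong to 2410003I16Rik, Gm12688 and Pantr1. Pantr1 was at 0 to 0.3 TPM at day 0 and listed at 0 at day 3. Cldn14, the neighbour of 2410003I16Rik, went from a mean of 0.467 TPM to 0. 2410003I16Rik and Gm12688 reached 5 TPM at day 0 only, so their lower day 3 levels follow from the choice of members. The r of 0.97 thus leans on pairs near the floor or picked by level, and nothing is read from it.

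Pairs with like and unlike values were both found. Gm12688 and its divergent neighbour Foxd3, a pluripotency and neural crest transcription factor, had log2 changes of -3.93 and -5.60 from day 0 to day 3 and of -6.64 and -5.58 from day 3 to day 5. Pantr1 and Pou3f3 had changes of 11.40 and 9.07 from day 3 to day 5. AI480526 and Setd1b, a histone methyltransferase gene, had changes of 1.35 and 1.28 from day 0 to day 3 and of 0.49 and -0.11 from day 3 to day 5. 5930412G12Rik and the Wnt receptor gene Fzd10 had changes of 1.49 and 1.67 and then of 0.63 and -1.10, opposite in sign. With Dox no divergent pair had both genes called at day 0 or day 5. Across these 13 pairs the Dox log2 fold changes had a Pearson r of 0.51 and a rho of 0.62 at day 0. At day 5 they were -0.86 and -0.21. The largest member value at day 5 was that of 2410003I16Rik (2.59, edgeR adjusted p = 0.57), with its neighbour Cldn14 at -0.64. This member was listed at 0 in the day 5 controls and at 0.17, 0.16 and 0 TPM with Dox. The day 5 r thus leans on a pair near the floor, and nothing is read from it. Of the 79 other pairs, 1 had both genes called at day 0: Snhg20 (-0.43) and Sec14l1 (-0.23, edgeR adjusted p = 0.02), whose starts lie 39160 bases apart. At day 5 none of the 79 had both called.

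**Figure D5:**
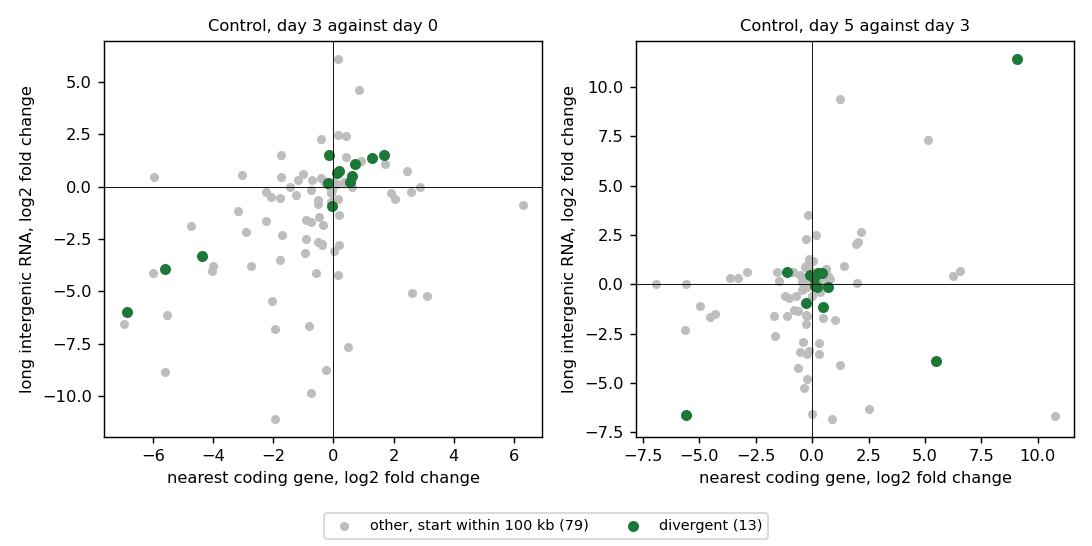
Log2 change of each member against that of its nearest coding gene in the control course, for 13 divergent pairs (green) and 79 other pairs with starts within 100 kb (grey). Divergent pairs lie near a common line from day 0 to day 3 (left), and less so from day 3 to day 5 (right). The line on the left leans on pairs near the floor or with members picked by their day 0 level.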

How the data were processed

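The deposited tables, 1 per library, hold unscaled expected counts (estimated counts) and TPM per gene, made by the authors with RSEM, and FPKM, which was not used. Trimmomatic, DESeq2 1.38.2, RSEM 1.3.3, STAR 2.7.10a and the build GRCm38 appear in the submitters' processing notes. Their roles, the annotation release and the strand setting are not given in the sources used here, and the kit was stranded. Levels are the authors' TPM, and membership was read from their group means. Of 55401 IDs, 55141 matched GENCODE M21.

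Expected counts, 6.54 to 7.49% of them not whole (by more than 0.005), were rounded and fitted in edgeR 4.0.16 (R 4.3.3) with TMM scaling, filterByExpr (minimum count 10, total 15; 17795 genes), quasi-likelihood F tests and 1 coefficient for each of the 6 groups (residual degrees of freedom: 12). Calls needed p under 0.05 after Benjamini-Hochberg adjustment across every gene tested. The fit was tested on simulated data. Alternatives were a replicate block, DESeq2 1.42.0, limma-voom (limma 3.58.1), RLE factors, library size alone, no filter, each day alone, and each library left out. Similar transcripts came from blastn 2.17.0 (95% identity, 50% coverage).

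In the labels each replicate number is also a batch tag. Nothing says that same-numbered libraries share a culture, and the main fit did not use the numbers. Across genes, same-numbered libraries' deviations correlated at 0.183 to 0.282 at day 0, 0.013 to 0.021 at day 3 and 0.02 to 0.038 at day 5. Control and Dox libraries of unlike number correlated at -0.207 to 0.038 at day 0, -0.029 to 0.015 at day 3 and -0.039 to 0.016 at day 5. Depth intervals and floors (3 counts per library) cover counting error only.

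Members, lists and tests were chosen with earlier results of these data known. Named genes were the 10 highest members, members called in a Dox contrast (or the 2 of smallest p), the 5 largest called differences between days, up to 8 called higher and 8 lower without overlap in each control contrast, list members, microRNA hosts, and the 3 genes on either side of 5 TPM. Other names (Halr1, 1700001L05Rik, Gm30124, the chromosome 13 cluster, divergent pairs and overlap partners) were picked after their values were seen.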

Additional observations from a re-analysis of the deposited data

Results flagged for a closer look

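In 4 cases the Dox effect on a member differed between days by the model's own test of the difference (edgeR). The difference of log2 fold changes, day 5 minus day 0, was 1.06 for Neat1, 0.74 for AI480526 and 0.71 for Gm21781. The difference, day 5 minus day 3, was 0.87 for Miat. Neat1 kept its call in 11 of 24 alternatives, AI480526 in 16, Gm21781 in 20 and Miat in 15.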

How the results depend on the processing

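Of 1042 values for single genes under the alternatives, 976 stayed on the same side of the threshold, 66 lost the call and none changed direction. Most of the 43 gene results were control-course changes picked as the largest called, and of these only Eprn lost calls (3 of 24). The day 3 Dox results had no call to lose. All other losses were in called Dox results, from none of 26 (Miat and Gm32061 at day 5) to 19 of 26 (2900097C17Rik). The pooled count thus does not measure how stable the Dox calls were. The replicate block raised the members called lower at day 0 from 2 to 4 and changed no other Dox call. In the control course it added Snhg12 at day 3 and AU020206, Tmem250-ps, Gm40987, Gm4316 and Gm27010 at day 5. At day 0, members called higher (0) numbered 1 with DESeq2, 1 with limma-voom and 2 without a filter, and members called lower (2) numbered 5 with DESeq2, 1 with RLE factors, 5 without a filter and 0 with the day fitted alone. At day 5, members called higher (3) numbered 5 with limma-voom, 5 without a filter, 5 with the day alone and 8 with the day alone and the block. Members called lower at day 5 (0) numbered 2 with DESeq2, 3 without a filter, 4 with the day alone and 8 with the day alone and the block. For the Dox effect at day 5 minus day 0, limma-voom called 0 higher (against 3), and no filter 2 lower (against 0). For day 5 minus day 3, no filter called 2 higher (against 1). The share of all genes called under these settings is not given here, so the counts are not read as results about members. The cause of these shifts was not tested.

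Leaving out a library gave 0 to 1 higher and 0 to 3 lower at day 0, 0 either way at day 3, and 2 to 4 higher and 0 to 2 lower at day 5. It gave 0 to 4 higher and 0 to 2 lower for day 5 minus day 0, and 0 to 1 higher and 0 lower for day 5 minus day 3. In the control course it gave 33 to 36 higher and 71 to 74 lower at day 3, and 33 to 40 higher and 44 to 48 lower at day 5. The day 5 call of Eprn was lost with limma-voom and without day 3 control replicate 3 or day 5 control replicate 2. Library size alone moved the median of all genes by 0.148 between day 0 and day 3. Levels under 1 TPM rest on fewer reads.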
